A study of Drosophila melanogaster with 4 samples.

Results

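Binding of the transcription factor Doublesex was described at 10 genes of Sestrin, TOR and AMPK signalling, the pathways through which cells sense nutrients and energy. The genes were Sesn, AdipoR, raptor, rictor, melt, SNF4Agamma, alc, Sik3, crc and Glut4EF. They were chosen by the presence of peak summits at them in these same data, so that their having peaks is not a finding, and their signal values and ranks are given as a description without a test. A summit belonged to a gene when it lay inside the gene's span or within 5 kb of it. By that rule the 10 genes, of 13968 protein-coding genes on the chromosome arms, held 58 of the 9154 reproducible summits.

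The summits came from chromatin immunoprecipitation and sequencing (ChIP-seq) of whole Drosophila melanogaster prepupae with an anti-GFP antibody. The animals were of a transgenic line that stably expresses dsx with GFP at its C terminus, were of both sexes pooled, and were labelled 24 h old. All 4 samples belong to this 1 group and are labelled biological replicates 1 to 4, so no groups could be compared and no difference between the sexes could be measured. Each replicate had a list of 30000 summits, and the pooled list of 30000 and the reproducible list were made from replicates 2, 3 and 4 only, per the deposited text notes. In whole animals a site bound in few cells and a site bound weakly in many cannot be told apart, and the labels do not say which Doublesex isoform carries the tag or whether the untagged gene is also present. Peak lists hold no expression values, so the sampled tissues were not checked against marker genes and no summit was linked to a change in a gene's activity.

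TOR is a kinase that promotes growth when amino acids and insulin signalling are plentiful, and it acts in a complex built on Raptor (TORC1) and another built on Rictor (TORC2). AMPK is a kinase of alpha, beta and gamma subunits that responds to low energy and restrains TORC1, and Sestrin is a stress-induced protein that holds TORC1 back when amino acids are scarce. Doublesex is the last transcription factor of the sex determination cascade in flies, and the fat body, where much nutrient sensing takes place, is among the tissues in which it is known to act.

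The sequences at 3 of the genes show what lay under the summits. ACAATGT is the core sequence that Doublesex is known to bind, and ACAAAGT differs from it by a single base. The windows run 50 bp to each side of a summit on the plus strand of dm6, from the RefSeq copy of that assembly, with either sequence in capitals; ACATTGT and ACTTTGT are the same sequences read on the minus strand. AdipoR and Glut4EF are shown because they had the strongest summits with the core. The intronic Glut4EF summit is added because its core lay almost at the summit of the pooled list in a far weaker peak. SNF4Agamma serves as a promoter summit with neither sequence.
AdipoR, chr3R:22547855-22547955: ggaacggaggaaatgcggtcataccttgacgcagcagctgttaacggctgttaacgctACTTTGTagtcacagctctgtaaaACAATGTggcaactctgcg
Glut4EF, chr3R:9874107-9874207: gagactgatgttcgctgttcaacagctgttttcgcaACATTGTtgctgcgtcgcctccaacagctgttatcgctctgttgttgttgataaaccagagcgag
Glut4EF intron, chr3R:9965629-9965729: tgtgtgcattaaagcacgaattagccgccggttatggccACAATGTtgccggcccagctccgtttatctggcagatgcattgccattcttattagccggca
SNF4Agamma, chr3R:21153121-21153221: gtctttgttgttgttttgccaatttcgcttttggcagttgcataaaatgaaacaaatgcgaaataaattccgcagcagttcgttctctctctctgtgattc

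The AdipoR window held ACAAAGT 11 bp and ACAATGT 35 bp from its summit, counted to the middle of each sequence. The Glut4EF window held the core 11 bp from its summit, and the intronic window 8 bp from it. The intronic summit (368.1) lay less than 260 bp beside a stronger one and was held by 2 of the 4 replicates among their strongest 10000. Replicate 1 had no summit within 100 bp of it, and that of replicate 2 lay 4 bp away at rank 14652. Replicates 3 and 4, which held it, had their summits 63 and 70 bp lower. The 8 bp to the core is therefore counted from the position in the pooled list. The strongest windows of AdipoR and Glut4EF also shared a run of 9 bases, CAGCTGTTA, which lay on either strand at 10 of the 9154 reproducible summits and at 2 of the strongest 100, these being AdipoR and Glut4EF themselves. A second shared run, GACGCAGCA, lay at 3 of the 9154. Both runs were looked for after these windows had been seen and are a description only.

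Sesn and AdipoR, which feed into the pathway from upstream, carried summits of rank 4 and 5 among all reproducible summits. Sesn (FBgn0034897, 2R:23713900-23734846, plus strand) encodes Sestrin. Its strongest summit, at 2R 23713324, lay 576 bp upstream of the start in intergenic sequence and had a signal value of 21254 in the pooled list, a score the authors deposited for each peak. Replicates 1 to 4 gave signal values of 2182, 4138, 6729 and 7396 there, at ranks 10, 5, 5 and 4. Because the values are not normalized between lists, each was also divided by the median of the strongest 10000 summits of its list, and the relative signal so obtained was 43.1 ± 17.2 (SD, n = 4). Replicates 3 and 4 were high and replicates 1 and 2 low, while the ranks stayed within the first 10. The start of Sesn is also the start of CG46429, so the summit cannot be assigned to either gene alone.

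The Sesn peak stood far above the rest of its locus. Its signal value was 9.32 times that of the second summit, at 2R 23720790 in the gene body (2280, rank 365). That summit lay 854 bp upstream of CG18128 and within 500 bp of a start of lncRNA:CR45325. Altogether 10 reproducible summits lay in the Sesn locus, 8 of them inside the gene, at a density of 0.323 per kb. Most of the 10 were nearest to the coding start of CG18128, and only those at 2R 23713324 and 2R 23716230 to that of Sesn. The strongest one had no ACAATGT within 50 bp, and the nearest copy of the core lay 7672 bp away, beside the weaker summit at 2R 23720990 (1507, rank 840). ACAAAGT lay 7 bp from an intronic summit of the gene, at 2R 23724893 (314.2).

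AdipoR (FBgn0038984, 3R:22543693-22547846, minus strand) encodes the fly receptor related to the mammalian adiponectin receptors, which act through AMPK in mammals. Its strongest summit, at 3R 22547905, lay 59 bp upstream of the start, and no other gene had a start within 1 kb of it. The signal value was 19408 in the pooled list, and 2242, 3553, 6797 and 6911 in replicates 1 to 4, at ranks 9, 8, 4 and 5. The relative signal was 41.1 ± 16.5 (SD, n = 4), again with replicates 3 and 4 above replicates 1 and 2. The replicate summits lay within 13 bp of the pooled one. The only other reproducible summit of the locus, at 3R 22540026 (515.2), was 37.7 times weaker and lay 107 bp upstream of CG5326.

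**Figure D1:**
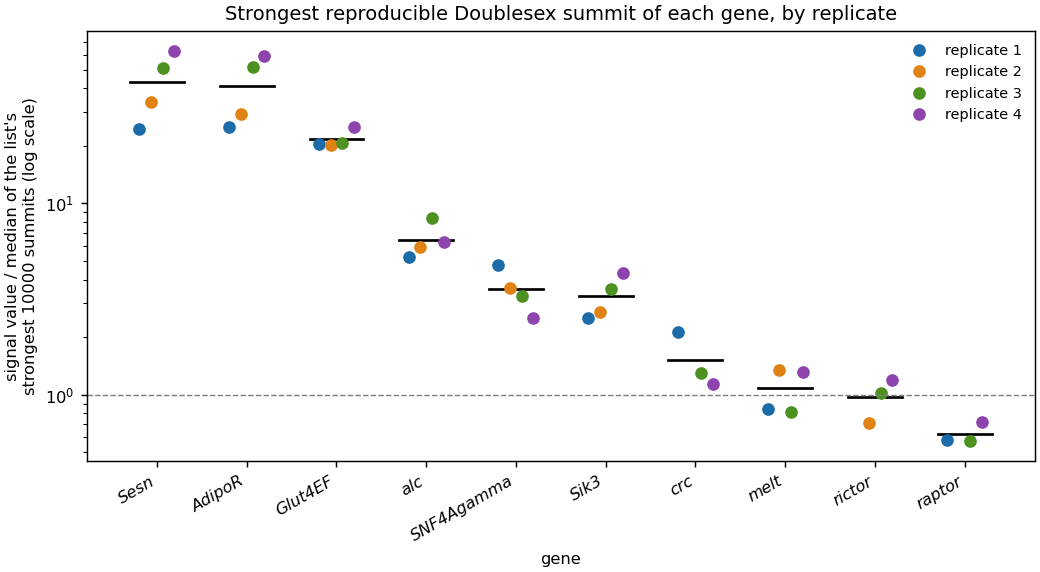
Signal value of the strongest reproducible summit of each of the 10 genes, divided by the median of the strongest 10000 summits of the same list (log axis), with 1 point per replicate and a black line at the mean over the replicates that had a summit within 100 bp. Sesn, AdipoR and Glut4EF lie between 20.3 and 62.8 in every replicate, alc between 5.27 and 8.42, and raptor between 0.570 and 0.722.

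The genes of the TOR complex scaffolds had 1 reproducible summit each, nearest to the coding start of another gene. That of raptor was weak, and that of rictor (480.2) was close to the median of all reproducible summits (463.2). The single reproducible summit of raptor (FBgn0029840, X:6082634-6090201, minus strand), at X 6091041, lay 840 bp upstream of its start, inside Mipp2 and 164 bp upstream of Nep1. Its signal value was 300.0 (rank 7708), with 51.8, 75.2 and 85.0 in replicates 1, 3 and 4 and none within 100 bp in replicate 2. The strongest summit of replicate 2 in the locus lay at X 6091170 and had rank 10008. The single summit of rictor (FBgn0031006, X:19252111-19261240, minus strand), at X 19261864, lay 624 bp upstream of its start and 44 bp inside Vav, with a signal value of 480.2 (rank 4370). Replicates 2, 3 and 4 had 86.7, 135.3 and 140.4 there, and the strongest summit of replicate 1 in the locus lay at X 19261980 (rank 4082), outside the 100 bp limit. The relative signals averaged 0.623 for raptor and 0.977 for rictor over 3 replicates each. For raptor all 3 values lay below the middle of the strongest 10000, and for rictor that of replicate 2 lay below it and those of replicates 3 and 4 above it.

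The gene melt (FBgn0023001, 3L:7134516-7143074, plus strand) encodes Melted, which links insulin and TOR signalling to fat storage in flies. Its strongest summit, at 3L 7134220, lay 296 bp upstream of the start with no other start within 1 kb. The signal value was 649.1 (rank 2939) in the pooled list and 75.5, 164.8, 106.9 and 155.8 in replicates 1 to 4. Replicates 2 and 4 had their strongest melt summit at this place. Replicates 1 and 3 had stronger ones at 3L 7134076 (rank 2458) and 3L 7134070 (rank 2433), so that the relative signal of 1.08 ± 0.296 (SD, n = 4) within 100 bp became 1.53 within 200 bp. The nearest ACAATGT lay 258 bp from the summit.

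SNF4Agamma and alc, the AMPK subunit genes among the members, had strong promoter summits without the core. The gene of the alpha subunit, AMPKalpha, is not a member and had no reproducible summit in its span or within 5 kb. SNF4Agamma (FBgn0264357, 3R:21140739-21214269, plus strand) encodes the gamma subunit, which binds AMP and ATP, and it has 11 annotated starts. It held 8 reproducible summits, 4 of them within 1 kb of a start. The strongest, at 3R 21153171, lay 125 bp upstream of a start well inside the gene. Its signal value was 1544 (rank 795) in the pooled list and 427.9, 441.7, 434.2 and 298.1 in replicates 1 to 4, at ranks 406, 685, 944 and 1301. The second, at 3R 21204646 and 282 bp upstream of another start, had 1500 (rank 845) in the pooled list and ranks 2926, 906, 651 and 497. Replicates 1 and 2 placed the first summit higher and replicates 3 and 4 the second, although the pooled values differed little.

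The gene alc (FBgn0260972, 2R:9135375-9137933, minus strand) encodes the beta subunit, which scaffolds the AMPK complex. Its 2 leading summits shared 1 peak interval of 1200 bp. The first, at 2R 9138907, lay 974 bp upstream of alc and had a signal value of 2727 (rank 251), with 471.4, 716.9, 1110 and 739.4 in replicates 1 to 4. The second, at 2R 9138296, lay 363 bp upstream of alc and had 2151 (rank 409), with 977.8, 1039, 331.2 and 280.5. Their ranks were 330, 264, 140 and 222 for the first and 72, 123, 1457 and 1448 for the second, so the second led in replicates 1 and 2 and the first in replicates 3 and 4. The relative signal was 6.46 ± 1.37 for the first and 6.09 ± 4.32 for the second (SD, n = 4 each). Both were nearer to starts of CG8788 (175 bp and 190 bp) than to alc. Another, weaker summit in the interval, at 2R 9139113 (349.2), held ACAATGT 5 bp away.

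**Figure D2:**
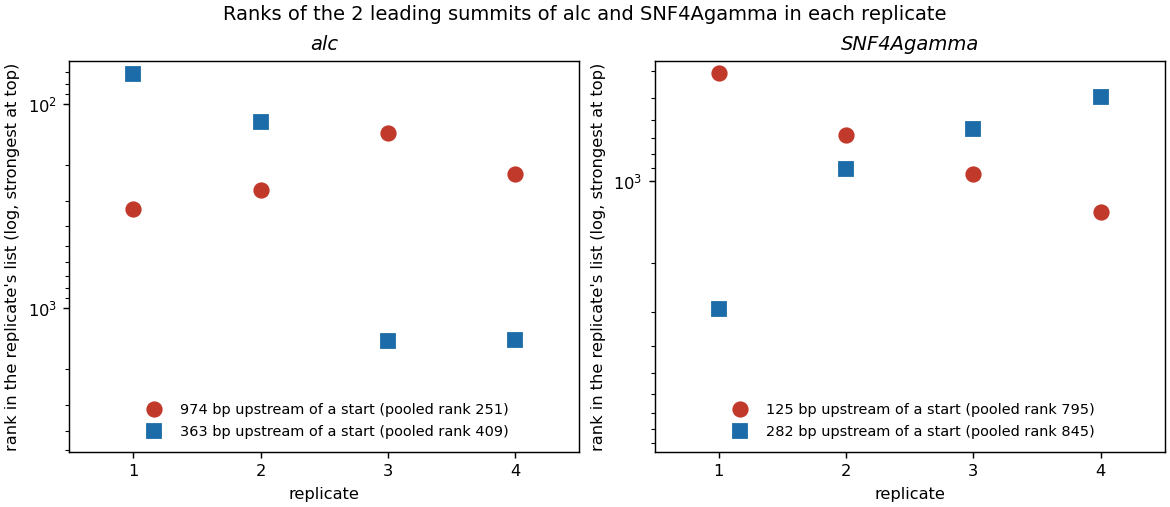
Rank of the 2 leading summits of alc (left) and SNF4Agamma (right) in the list of each replicate (log axis, strongest at the top), with the first summit of the pooled list as red circles and the second as blue squares. In alc the second summit leads in replicates 1 and 2 (ranks 72 and 123), and in SNF4Agamma it leads in replicates 3 and 4 (ranks 651 and 497).

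Sik3 (FBgn0262103, 2R:18688132-18705805, plus strand) encodes a kinase related to AMPK that, like it, is activated by Lkb1 and that controls fat stores in flies through HDAC4. Its strongest summit, at 2R 18688046, lay 86 bp upstream of the start, where CG42855 overlaps. The signal value was 1557 (rank 784) in the pooled list and 224.5, 330.5, 471.5 and 511.3 in replicates 1 to 4, at ranks 1292, 1162, 816 and 476. All 4 replicates had their strongest Sik3 summit here, with a relative signal of 3.29 ± 0.841 (SD, n = 4), and ACAATGT lay 44 bp away. The other 4 summits were intronic, with signal values between 273.8 and 786.3.

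The gene crc (FBgn0000370, 2L:21310866-21319527, plus strand) encodes the fly ATF4, a transcription factor of the response to amino acid shortage and stress. Its strongest summit, at 2L 21310929, lay 63 bp downstream of the start and 879 bp upstream of Mondo, which encodes a sugar-sensing transcription factor, so 1 summit counts for both genes. The signal value was 693.4 (rank 2695) in the pooled list and 190.8, 172.2 and 133.6 in replicates 1, 3 and 4. The strongest summit of replicate 2 in the locus lay at 2L 21311031 (rank 2688), just outside the 100 bp limit. None of the 4 summits of crc held ACAATGT or ACAAAGT, and none was held by all 4 replicates.

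Glut4EF (FBgn0267336, 3R:9874681-9995364, plus strand) encodes a transcription factor named after a mammalian protein that binds the promoter of the glucose transporter gene GLUT4. It had the most summits of the 10 genes, 21 along 120684 bp, and 23 of the 13968 genes had as many or more. The strongest, at 3R 9874157, lay 524 bp upstream of the start, which CG46467 shares. Its signal value was 9976 (rank 14) in the pooled list and 1820, 2467, 2743 and 2966 in replicates 1 to 4, at ranks 15, 14, 20 and 15. The relative signal was 21.7 ± 2.37 (SD, n = 4), the smallest spread for its size among the strongest summits of the 7 genes with values in all 4 replicates. The second summit, in the first intron at 3R 9881530 (3269, rank 173), was 3.05 times weaker. A group of 7 intronic summits lay between 87172 and 91654 bp from the first start. A stronger summit lay less than 260 bp before 5 of the 21, in the order of coordinates, so the 21 are not all separate sites.

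**Figure D3:**
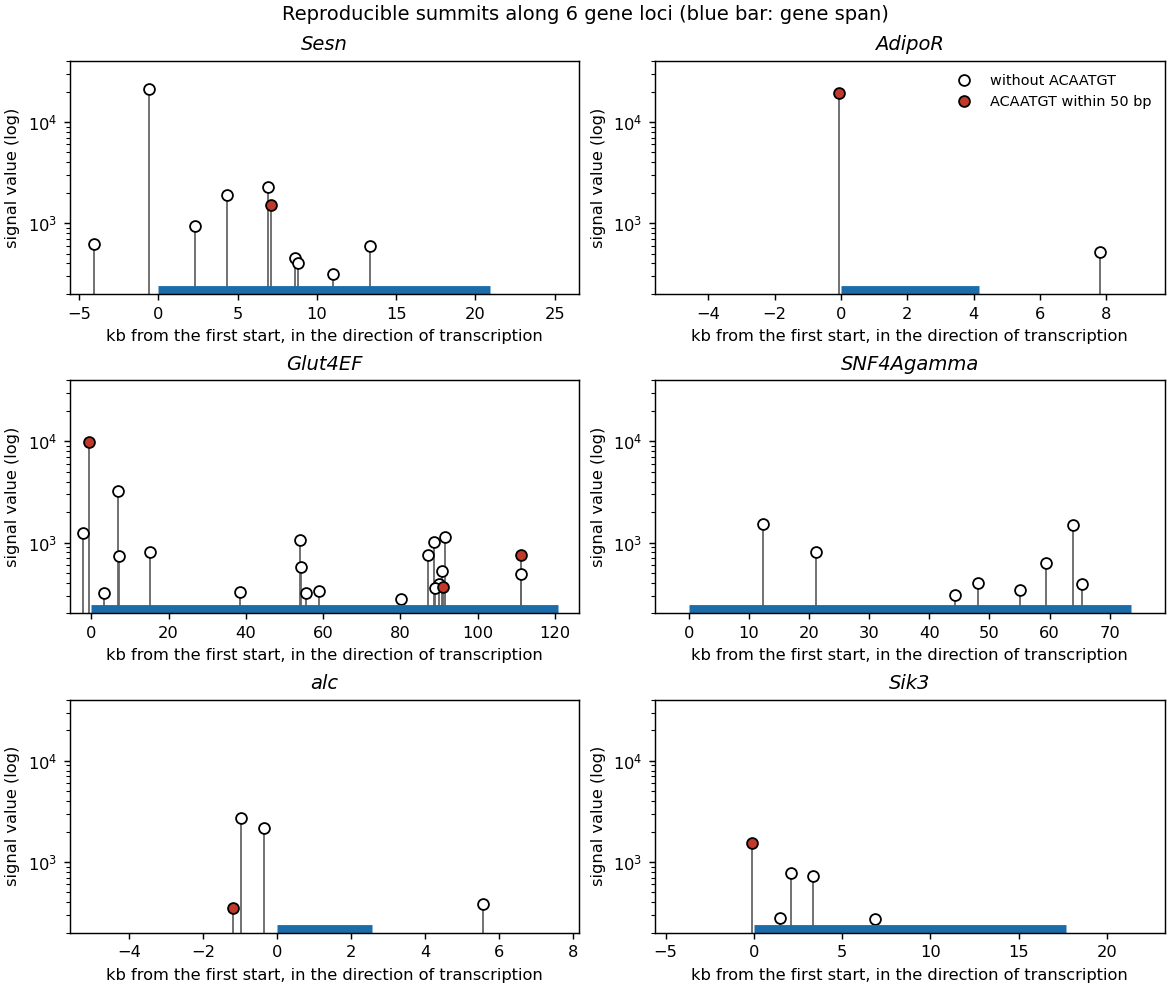
Reproducible summits at Sesn, AdipoR, Glut4EF, SNF4Agamma, alc and Sik3 by distance from the first start in kb and by signal value (log axis), with the gene span as a blue bar and summits with ACAATGT within 50 bp in red. Sesn, AdipoR and Glut4EF each have 1 summit near the start far above the others, with 21254, 19408 and 9976, and in SNF4Agamma both leading summits lie inside the gene.

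In the order of relative signal, Sesn, AdipoR and Glut4EF stood above all others. Their ranges over replicates overlapped (24.4 to 62.8, 25.1 to 58.7 and 20.3 to 25.2). Within each of the 4 replicates, however, Glut4EF was below both Sesn and AdipoR. Sesn was above AdipoR in replicates 2 and 4 and below it in replicates 1 and 3. The values of alc (5.27 to 8.42) did not overlap those of Glut4EF above or of SNF4Agamma (2.53 to 4.78) below. Those of SNF4Agamma and Sik3 (2.51 to 4.34) overlapped almost wholly, with SNF4Agamma higher in replicates 1 and 2 and Sik3 higher in replicates 3 and 4. The remaining genes, crc, melt, rictor and raptor, lay between 0.570 and 2.13. The ranks of Sesn over the 4 replicates were most like those of AdipoR, apart from CG46429, which shares the Sesn summit. The distance on a log10 rank scale was 0.250, against 0.685 for mtSSB, the next of 2787 genes compared.

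Set beside all genes, all 10 members had a reproducible summit in the span or within 5 kb, which the choice of the genes fixed, against 52.3% of all protein-coding genes. A summit lay within 1 kb of a start in 10 of 10, against 26.2%. A summit among the strongest 500 was present in 4 of 10 (Sesn, AdipoR, Glut4EF and alc), against 7.33%. The rule used these same lists, so nothing is read from these counts. These shares go up with gene length, to 73.9%, 52.7% and 16.5% in the longest of 10 length classes, which holds Sesn, Glut4EF, SNF4Agamma and Sik3. The density was 0.155 summits per kb in the member loci and 0.0684 per kb over the chromosome arms, and the median signal value was 582.5 for member summits and 463.2 for all. Nearest to the 5 kb limit on its inner side was the summit at 2R 23709863, 4037 bp from Sesn (628.6, rank 3064) and nearest to Alg3. The first on the outer side, at X 6077174, was 5460 bp from raptor (461.1, rank 4609).

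**Figure D4:**
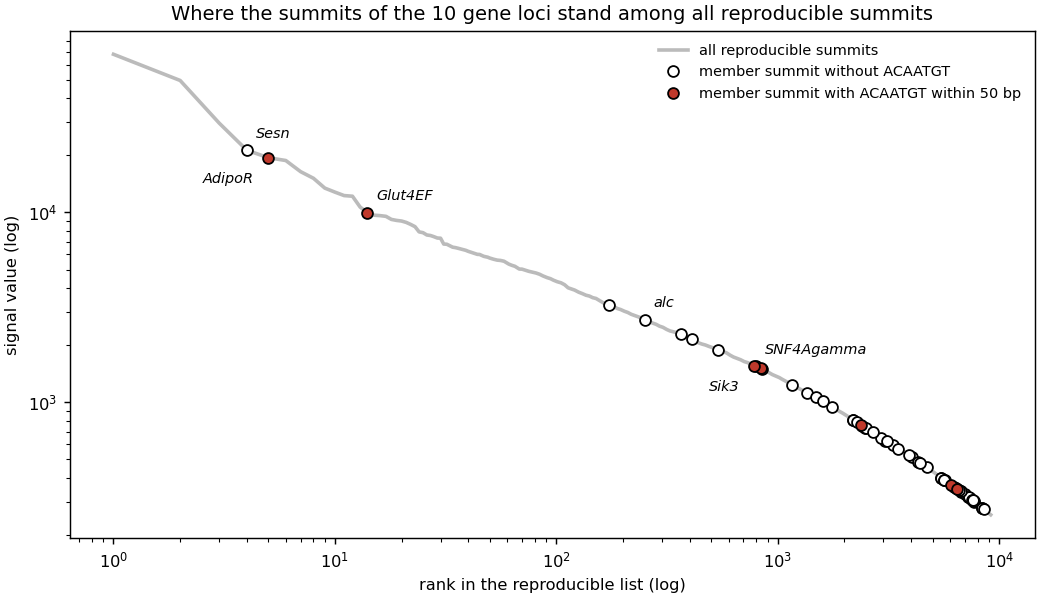
Signal value against rank for all 9154 reproducible summits (grey line) and the 58 member summits (circles, red with ACAATGT within 50 bp), both axes on a log scale. Only Sesn, AdipoR and Glut4EF reach the first 25 ranks, and the median member summit has 582.5 against 463.2 for all summits.

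Most member summits lay near starts or in introns. Of the 58, 25 (43.1%) were within 500 bp of an annotated start, against 37.3% of all reproducible summits, and 27 (46.6%) were in introns, against 41.5%. There were 3 in intergenic sequence (5.17%, against 17.6%), 1 at Sesn and 2 at Glut4EF, and none in a coding exon. There were 2 in 5′ untranslated sequence (3.45%, against 1.03%), both at Sesn, and 1 in 3′ untranslated sequence, at Glut4EF. The rule itself favours gene bodies, so these shares were not compared further. The nearest coding start belonged to the member at 32 of the 58. Median GC content within 50 bp was 42.6% for member summits and 37.6% for all.

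All 4 replicates held 30 of the 58 member summits (51.7%) among their strongest 10000, against 53.2% of all reproducible summits. Replicate 1, which took no part in the reproducible list, held 43 (74.1%, against 74.0%). Replicate 2 held 82.8% (against 81.5%), replicate 3 held 86.2% (against 85.8%) and replicate 4 held 93.1% (against 83.1%), so replicate 4 was the farthest from the share of all summits. The mean over the 4 replicates was 84.1% ± 7.89 (SD, n = 4). At least 3 replicates held 49 of the 58, exactly 2 held the other 9, and none was held by fewer. The same counts were not made for all reproducible summits, and replicates 2, 3 and 4 made the list, so nothing is read from them. The strongest summit was held by all 4 replicates in 7 genes, the exceptions being raptor, rictor and crc.

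The Doublesex core was at 7 of the 58 member summits (12.1%), against 8.06% of all reproducible summits. They lay at Glut4EF (3), Sesn, AdipoR, alc and Sik3 (1 each), 5 of them among the 25 summits within 500 bp of an annotated start and 2 among the other 33. At Sesn, Glut4EF and alc the start in question belonged to another gene: lncRNA:CR45325, Art4 (268 bp away) and CG8788 (31 bp away). The same split was not made for all reproducible summits. ACAAAGT was at 4 (6.90%, against 6.84%), at Sesn, AdipoR and 2 summits of SNF4Agamma. The longer degenerate consensus was at 5 (8.62%, against 6.07%). With so few summits no difference from the background could be read from these shares. Windows shifted by 500 bp held the core at 0 of the 58 places on the lower-coordinate side and at 2 on the higher. Shifted windows were not searched for all reproducible summits, so nothing is read from these counts. The core was present at the strongest summits of AdipoR, Glut4EF and Sik3 and not within 50 bp of those of the other 7 genes.

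Among 43 further genes of these pathways, a start lay within 1 kb of a reproducible summit in 17 (39.5%), against the 26.2% of all genes given above. The 43 were listed by role, but earlier results of these data were already known when the lists were made. Long genes have such a summit more often (52.7% in the longest length class), and the lengths of the 43 were not taken into account. No enrichment is therefore read from these shares. Of 14 genes around TORC1 and TORC2, 6 had such a summit. The strongest was REPTOR, a transcription factor that TORC1 holds out of the nucleus (2002, rank 472), followed by unk (739.9), which acts downstream of TOR. Next were the translation repressor gene Thor (522.9) and the ribosomal protein kinase gene S6k (417.8). The remaining 2 had 315.8 and 258.8, the latter nearest to the coding start of another gene. In the amino acid branch 4 of 16 did, among them Wdr24, of the GATOR2 complex to which Sestrin binds (1622), and the amino acid transporter gene mnd (940.5). Nup44A, another GATOR2 subunit gene (557.2, nearest to the coding start of ACC), and the transporter gene path (262.4) were the others.

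Both scyl (1026) and chrb (700.6), stress-induced inhibitors of TORC1 related to mammalian REDD1, had such a summit, out of 3 stress inhibitors listed. In the AMPK and SIK branch 2 of 7 did, the deacetylase genes Sirt1 (688.7, nearest to the coding start of DnaJ-H) and HDAC4 (256.4). All 3 sugar-sensing genes did, bigmax, which encodes the partner of Mondo (1108), Mondo (693.4, the summit it shares with crc) and sug, a transcription factor gene induced by sugar (326.3). None of the strongest start-proximal summits of the 17 genes held ACAATGT. It lay at 8.06% of all reproducible summits, so with so few summits nothing is read from this count. That of REPTOR was the only one of these 17 summits within the strongest 500. In the span or within 5 kb of it, 32 of the 43 had a reproducible summit, against 52.3% of all protein-coding genes. The share of all genes was 73.9% in the longest length class, and the lengths of the 43 were not taken into account. Nothing is read from this count either.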

How the data were processed

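ChIP-seq peak lists of 4 replicates, a pooled list and a reproducible list were used, all on dm6. Per the deposited text notes, the calls for each replicate used 1 control file, and the pooled list and the list passing the irreproducible discovery rate came from replicates 2, 3 and 4. Not given in the sources used here are the aligner, the peak caller and that rate's threshold. The deposited signal value of each peak is the authors' own and is not normalized between lists. The deposited −log10 q-value reached a ceiling shared by all reproducible summits and was not used. The 9154 reproducible summits were the strongest of the pooled list. Every list of 30000 has a fixed length, which is not a count of binding sites. Lists hold no read counts, so depth is unknown. The control samples and the signal tracks were not used here.

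Positions are 1-based. Summits were assigned with Ensembl release 115 gene models, and classed as promoter where any annotated start lay within 500 bp, then as untranslated (5′ before 3′), coding or other exon, then as intron, and otherwise as intergenic. A replicate held a summit when it had one within 100 bp among its strongest 10000, and its signal was that of the highest summit within 100 bp in the whole list. ACAATGT, its variant with 1 base changed (ACAAAGT) and the longer degenerate Doublesex consensus were sought on both strands, wholly within 50 bp. Windows in annotated untranslated sequence are not printed. No test was run, since there is 1 group and the genes were chosen by their peaks. The 10 genes, the 5 pathway lists, the rules and the alternatives were chosen with earlier results of these data known. All 10 genes were named, with their strongest summits. Weaker summits could be named, at most 4 a gene, if among the strongest 500, within 1 kb of a start or with the core. Some of these are not described, among them summits within 1 kb of a start of crc, SNF4Agamma, Sik3 and Glut4EF. From each list at most 4 genes were named, by signal value. The summits at Sesn with ACAAAGT and at AdipoR beside CG5326, and those nearest the 5 kb limit, were named in addition after their values were seen. For Sesn and AdipoR the genes with the most similar ranks were named, by the Euclidean distance of log10 ranks over the 4 replicates. Of the 43 listed symbols all matched, with Tor and CRTC matched through synonyms. The distance to the nearest core, the shared runs and GC content were added after seeing values. Alternatives covered distances, lists, thresholds, windows and replicates left out. Scripts were tested on simulated data and used Python 3.11.15, numpy 2.4.6, pandas 2.3.3 and matplotlib 3.10.9.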

Additional observations from a re-analysis of the deposited data

Results flagged for a closer look

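In 3 of 19 measures checked over the 4 replicates, 1 replicate stood apart, with its gap to the nearest other replicate divided by the whole range above the 95% critical value of Dixon's ratio for 4 values. For continuous, normally distributed values chance alone flags about 1 in 20 such measures, and that rate does not hold for counts of summits. The relative signal of the strongest Glut4EF summit had a ratio of 0.891, with 25.2 in replicate 4 against 20.3 to 20.8 in the others, and all 4 values were above those of alc. The number of raptor summits among the strongest 10000 had a ratio of 1.0, with 0 in replicate 2 and 1 in each other replicate, where the summit of replicate 2 had rank 10008. The number of rictor summits had a ratio of 1.0, with 2 in replicate 1 and 1 in each other replicate. The last 2 ratios rest on a difference of 1 summit.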

How the results depend on the processing

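With no distance added to the spans, 6 of the 10 genes held a reproducible summit, since those of AdipoR, raptor, rictor and alc lay outside them. The 58 summits were 44, 53 and 69 with 0, 1 and 10 kb added to the spans, and became 34 among the strongest 4577 of the list and 32 where the nearest coding start had to be the member's. Summits less than 260 bp beside a stronger one were 9 of the 58 (15.5%), against 7.79% of all. Without them ACAATGT lay at 4 of 49 member summits (8.16%), not 7 of 58, against 8.57% of all. Within 25 bp ACAATGT lay at 4 of the 58, against 4.80% of all. ACAAAGT lay at 4 within 50 bp, against 6.84%. Leaving out each replicate in turn, 7 to 9 genes had a summit held by all the others and 31 to 39 summits were so held. Dividing by the median of all summits of a list raised all 10 relative signals, to 119 for Sesn and 1.74 for raptor, and matching within 200 bp moved that of melt. No paired analysis was possible because there is 1 group. Limits that bear on these values are the unknown depth, the lack of any second group and of expression data, the use of replicates 2, 3 and 4 to make the reproducible list, and the starts of other genes within 1 kb of the strongest summits of Sesn, Glut4EF, alc, Sik3, rictor, raptor and crc.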
